A study of Mus musculus with 18 samples.

Results

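The H3K79me2 landscape of mouse Th2 cells was described from 3 lists of broad peaks, 1 for each H3K79me2 library labelled Th2, among 9 such lists and 18 samples in the series, the other 9 being inputs. No other cell type was used. The series addressed the role of the histone methyltransferase DOT1L in T helper cells. Th2 cells are the CD4 T helper cells that make IL-4, IL-5 and IL-13 and serve in defence against worms and in allergy. Per the labels, the genotype was WT. Enriched CD4 T cells were kept for 4 days on plates coated with anti-CD3 and anti-CD28, together with IL-2, IL-4 and an antibody that blocks IFNg. The cells came from a mouse line in which AmCyan reports IL-4 and dsRed reports IL-13, and those that expressed either were sorted. Il4 and Il13 were therefore used to choose the cells. For each library 1500000 cells were fixed for 10 min in 0.6% formaldehyde, and 2 µg of the H3K79me2 antibody was used. The labels do not say whether the 3 libraries came from separate animals, so an SD given here covers differences between libraries that can be technical as well as biological. How deeply each library was sequenced is unknown.

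H3K79me2 is dimethylation of a lysine on the globular core of histone H3. DOT1L, the enzyme that sets it, has no SET domain and travels with elongating RNA polymerase II through partners such as MLLT1, MLLT3 and MLLT10. The mark is therefore known from transcribed genes, above all from the part of the gene body that follows the start site, and is often used as a sign of transcription elongation.

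Many but not all genes of the Th2 lineage carried the mark. Of 25 such genes, 9 (36.0%) were covered from end to end in all 3 lists and 6 (24.0%) were bare in all 3. Among all protein-coding genes these shares were 4.19% and 47.1%. The cytokine genes Il4, Il13, Il10 and Il24 and the factors Maf and Gfi1 were among the 9, Il4 and Il13 being genes by which the cells were sorted. Il9, Il31 and Areg were among the 6, and Il1rl1, which encodes the IL-33 receptor ST2, had 0.472% ± 0.436 of its length covered (SD, n = 3). Gata3, the master regulator of Th2 cells, was covered over 96.9%, 96.6% and 100% of its 30.9 kb. Peaks lay over the T cell receptor complex genes Cd3d and Cd3e (100% in each list). Of 10 B cell markers 6 (60%) were never covered, among them Ms4a1, while Cd79a was full. That share is not far above the 47.1% of all protein-coding genes. Still, the median coverage of the B cell list was 0%. Peaks lay over only 0.0692% ± 0.0654 of Ebf1 and 0.358% ± 0.310 of Cr2. Of 10 myeloid markers 9 (90%) were never covered, among them Lyz2 and Itgam, while Cd68 was full. Of the counter-lineage, Ifng, the hallmark cytokine of Th1 cells, was bare in 2 lists and covered over 8.31% in the other list, whereas Tbx21, which encodes the Th1 regulator T-bet, was covered over 100%, 99.7% and 100%.

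Promoters of 6 genes are shown because they span the kinds of start site met below. Each is the 250 bases before the most upstream start site in the RefSeq promoter table on GRCm38.p6, the assembly of mm10, printed 5′ to 3′ on the strand of the gene. Capitals mark CG dinucleotides. Etv6 and Bcl2 were the longest fully covered genes with a promoter in that table and have CG-rich starts, as has Gata3. The Gata3 window lies inside the annotated gene, whose span begins upstream of the first start in that table. Il4 and Gimap4 were fully covered too, with no CG and with 3 CG in the window. Cntnap2, a neuronal adhesion gene, was covered in no list although its window holds 13 CG.

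Etv6 (chr6:134035450-134035699, plus strand): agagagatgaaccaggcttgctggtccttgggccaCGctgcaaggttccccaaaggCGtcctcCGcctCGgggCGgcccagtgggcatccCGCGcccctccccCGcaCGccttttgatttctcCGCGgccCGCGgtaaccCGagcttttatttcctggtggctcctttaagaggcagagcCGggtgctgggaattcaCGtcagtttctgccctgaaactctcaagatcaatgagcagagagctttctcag
Bcl2 (chr1:106714291-106714540, minus strand): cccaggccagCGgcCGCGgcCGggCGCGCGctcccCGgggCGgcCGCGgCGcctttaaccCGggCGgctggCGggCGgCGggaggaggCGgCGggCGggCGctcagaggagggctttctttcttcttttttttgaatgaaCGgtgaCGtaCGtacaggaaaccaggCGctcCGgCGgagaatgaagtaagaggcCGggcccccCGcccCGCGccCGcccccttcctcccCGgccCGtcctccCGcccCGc
Gata3 (chr2:9878601-9878850, minus strand): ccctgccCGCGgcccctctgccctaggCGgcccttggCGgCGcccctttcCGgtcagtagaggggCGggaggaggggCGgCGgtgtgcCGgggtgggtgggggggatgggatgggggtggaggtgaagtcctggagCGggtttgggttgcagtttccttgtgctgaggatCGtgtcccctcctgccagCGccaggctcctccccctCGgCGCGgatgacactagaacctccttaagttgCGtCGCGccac
Il4 (chr11:53618666-53618915, minus strand): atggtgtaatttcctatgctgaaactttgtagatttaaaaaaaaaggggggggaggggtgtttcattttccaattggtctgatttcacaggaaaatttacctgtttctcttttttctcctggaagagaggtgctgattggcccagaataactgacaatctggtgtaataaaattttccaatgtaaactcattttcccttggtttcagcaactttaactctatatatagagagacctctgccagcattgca
Gimap4 (chr6:48684328-48684577, plus strand): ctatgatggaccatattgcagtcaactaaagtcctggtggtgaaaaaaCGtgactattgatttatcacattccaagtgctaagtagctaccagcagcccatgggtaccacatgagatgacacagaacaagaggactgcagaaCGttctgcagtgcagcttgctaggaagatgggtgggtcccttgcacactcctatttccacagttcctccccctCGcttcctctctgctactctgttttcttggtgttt
Cntnap2 (chr6:45059811-45060060, plus strand): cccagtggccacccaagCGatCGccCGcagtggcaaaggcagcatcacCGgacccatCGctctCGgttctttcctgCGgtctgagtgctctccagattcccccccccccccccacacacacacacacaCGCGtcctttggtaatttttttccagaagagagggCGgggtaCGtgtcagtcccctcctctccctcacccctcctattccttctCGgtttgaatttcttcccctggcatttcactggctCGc

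H3K79me2 of Th2 cells lay in many short peaks and a few very long domains, and the long domains held most of the covered sequence. The lists held 45894, 51854 and 49178 peaks, which covered 232, 239 and 250 Mb (240.3 ± 8.93 Mb, SD, n = 3). The median peak was 1197, 1018 and 1188 bp wide (1134 ± 101 bp), and the widest was 349.7, 346.8 and 349.8 kb. Peaks shorter than 0.5 kb made up 29.2% ± 1.91 of peaks but held 1.84% ± 0.161 of covered bases. Peaks of more than 10 kb made up 11.8% ± 0.675 of peaks and held 67.7% ± 0.548 of covered bases, and 50% of all covered bases lay in peaks wider than 20.3 ± 0.391 kb. Domains of 50 kb or more numbered 657, 681 and 742, of which 125, 115 and 147 reached 100 kb.

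**Figure D1:**
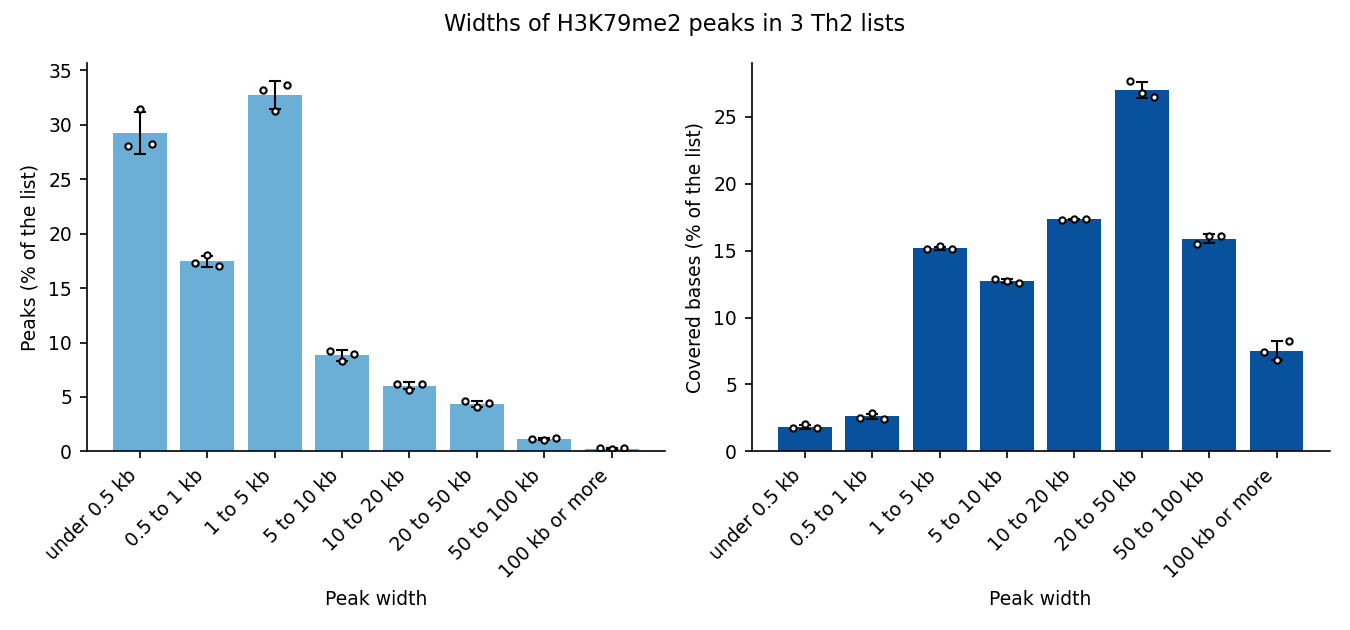
Peak widths in the 3 Th2 lists, as the share of peaks (left, %) and the share of covered bases (right, %) in each width class; bars are means, error bars SD over the 3 lists and points single lists. Peaks under 0.5 kb are 29.2% of peaks and hold 1.84% of bases, while the class of 20 to 50 kb holds 27.0% of bases.

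Wider peaks were also the stronger ones. The fold enrichment that the authors' peak caller gave to each peak had a median of 1.98 ± 0.0519 in peaks under 0.5 kb and of 2.20 ± 0.0472 in peaks of 1 to 5 kb. It was 4.19 ± 0.0597 in peaks of 10 to 20 kb and 6.04 ± 0.326 in peaks of 100 kb or more (SD, n = 3). These values belong to each peak within its own list. Most of the covered sequence was genic, with 86.0% ± 1.33 of covered bases inside protein-coding genes, although such genes take up 39.2% of the chromosomes. Of the peaks, 74.4% ± 2.13 touched a protein-coding gene. Their median width was 1462 ± 157 bp, against 684 ± 58.0 bp for peaks that touched none.

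The 3 lists shared most of their sequence. Together they covered 278.6 Mb, of which 205.2 Mb (73.7%) was covered in all 3 lists, or 7.82% of the chromosomes. The first list had 4.0% of its bases to itself, the second 5.3% and the third 7.8%. The Jaccard index, the shared share of the bases covered by either list of a pair, was 0.819, 0.812 and 0.815. Peaks that touched no peak of another list numbered 5563, 8972 and 10384, and their median widths were 303, 286 and 338 bp. Only 1 peak had identical coordinates in a pair of lists, so each list was counted as a sample of its own.

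Each of 21631 protein-coding genes was placed in a class by the share of its annotated length that the peaks covered. Fully covered in all 3 lists were 906 genes (4.19%), and 9123 (42.2%) were partly covered in all 3. Never covered were 10187 genes (47.1%). The other 1415 genes (6.54%) changed class between lists, and of these 578 were full in some lists and partly covered in the rest. Another 448 had a peak in 1 list only, 244 of them in the third list, which covered the most sequence. A partly covered gene had a median coverage of 47.8% (quartiles 24.3% and 72.4%), and its coverage ranged over a median of 4.80 percentage points between the lists. Read list by list, 1124, 1166 and 1267 genes were fully covered and 10745, 10659 and 10442 were bare.

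The classes differed in gene length. Among genes under 5 kb, 9.34% were full and 72.7% were never covered. Among genes of 20 to 50 kb, 1.41% were full, 58.3% partly covered and 34.5% never covered. None of 557 genes of 300 kb or more was full in all 3 lists, and 63.9% of them were never covered. The length of sequence covered grew with the gene, from a median of 2.44 kb in covered genes under 5 kb to 13.5 kb at 20 to 50 kb and 66.2 kb at 300 kb or more, but the share covered was smaller in longer genes, 96.3%, 44.3% and 13.4% in the same 3 classes. Short genes include the large families of sensory receptors: 1097 of 1110 odorant receptor genes and 351 of 353 vomeronasal receptor genes were never covered.

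**Figure D2:**
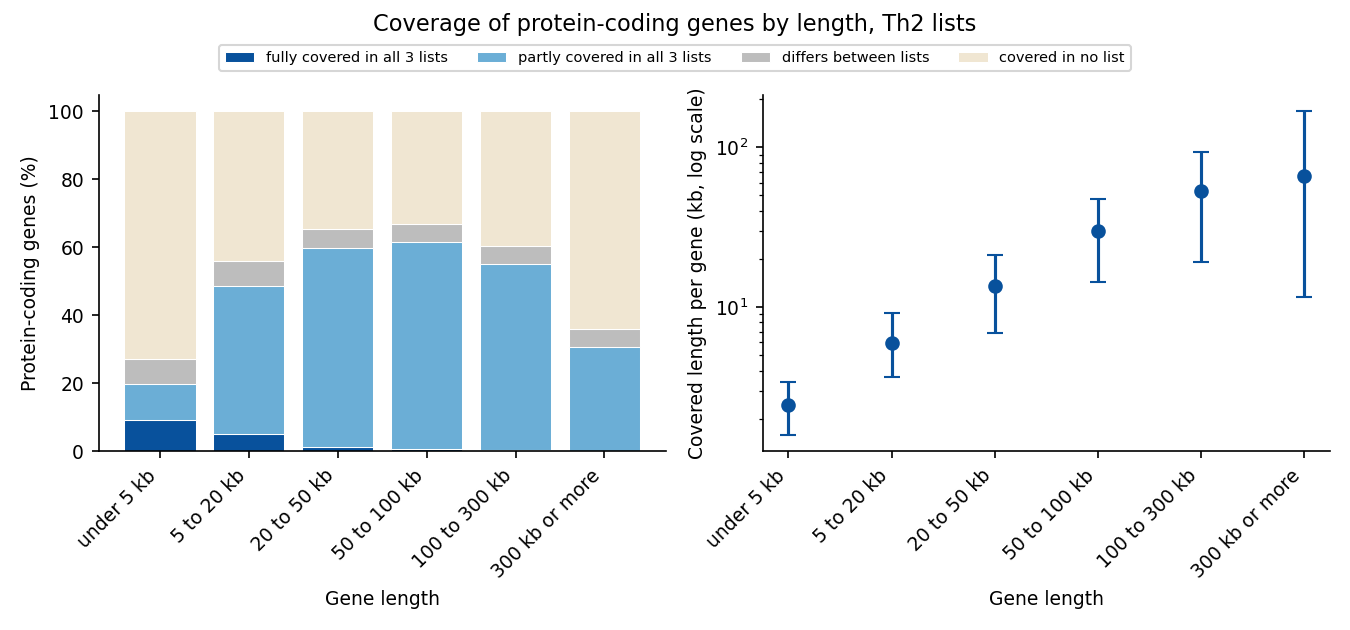
Left, the share of protein-coding genes (%) in each coverage class by gene length; right, the covered length per gene (kb, log scale) of genes covered in all 3 lists, as median with quartiles over genes. Full coverage is most frequent under 5 kb (9.34%) and absent at 300 kb or more, while the median covered length is 2.44 kb in the shortest and 66.2 kb in the longest class.

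Partial coverage lay at the start of genes. Of 4579 partly covered genes of 20 kb or more with a known strand, 74.0% had at least 50% of their first 2 kb covered in all 3 lists, and 7.14% had as much of their last 2 kb covered. The start was covered and the end bare in 53.5% of these genes, and the reverse held in 1.57%. Averaged over genes, 77.4% ± 1.02 of the first 2 kb and 10.4% ± 0.754 of the last 2 kb were covered (SD, n = 3 lists). In partly covered genes of 20 to 50 kb, coverage was 78.97% ± 1.21 in the first 10% of the gene, 48.0% ± 1.15 at its middle and 14.3% ± 0.948 in the last 10%. In genes of 300 kb or more the same positions had 44.4% ± 1.02, 26.9% ± 1.14 and 12.6% ± 1.21.

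Seen base by base, more partly covered genes were covered past the start site than at it or before it. Of 6996 partly covered genes longer than 5 kb, 46.3% were covered at the first start site itself, 78.4% at 500 bases past it and 85.9% at 1250 bases past it. On the other side, 46.5% were covered at 1000 bases before the start and 30.5% at 3000 bases before it, with a shallow dip to 43.6% at 250 bases before it. The profile was chosen after the values of the 2-kb windows had been seen. In genes never covered, 1.58% had coverage at 3000 bases before the start. Fully covered genes had domains that ran past both ends: for the 728 with a known strand the median domain began 4.22 kb before the gene (quartiles 1.67 and 9.54 kb) and ended 3.00 kb past it (quartiles 1.32 and 7.78 kb).

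**Figure D3:**
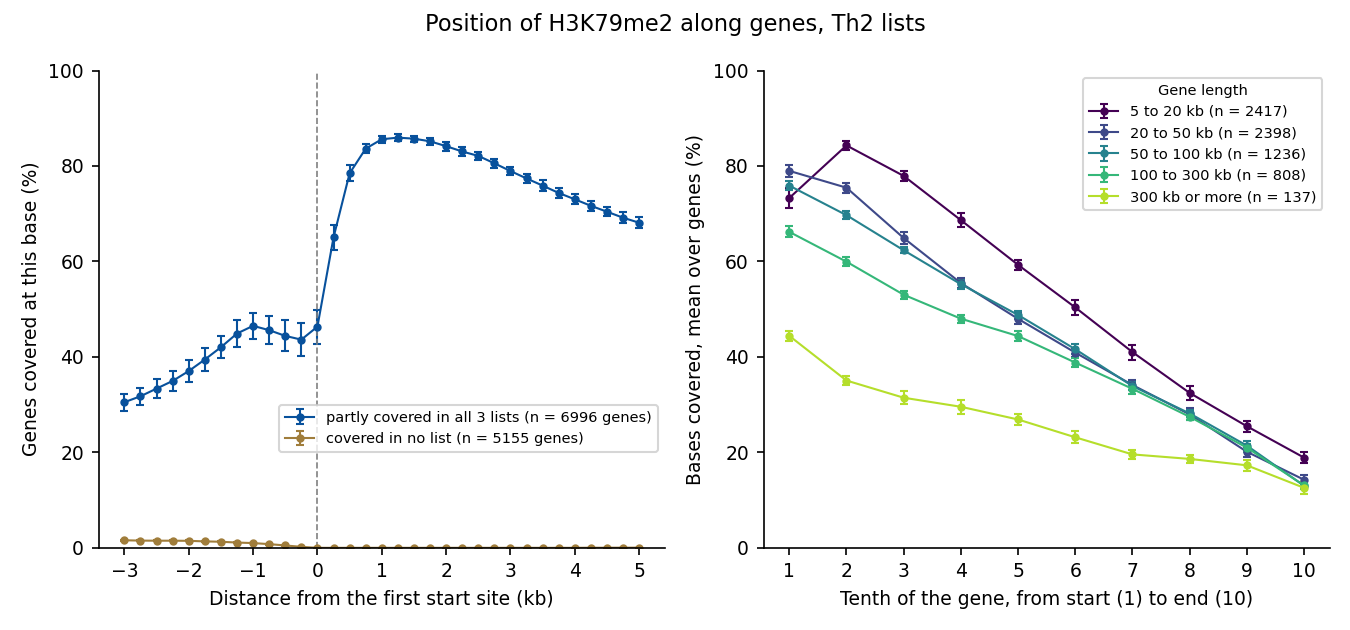
Left, the share of genes (%) whose base at a given distance from the first start site (kb) is covered, for partly covered and never covered genes longer than 5 kb; right, the mean share of bases covered (%) along 10 equal pieces of partly covered genes, by gene length. Points are means and error bars SD over the 3 lists. Coverage of partly covered genes is 46.3% at the start site, 85.9% at 1250 bases past it, and lowest at the gene end.

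In some genes with several start sites the domain lay past an inner one. In 467 partly covered genes start sites lay 10 kb or more apart, the first being the most upstream one in the promoter table. Of these genes, 60 had a bare first start in all 3 lists and a later start followed by covered sequence. The 60 were singled out after their values were seen. A median of 91.2% of their covered bases lay past that later start, while a median of 54.7% of the gene length did. The share of covered bases was above the share of gene length in 57 of the 60, and 33 of the 60 had 90% or more of their covered bases there. Choosing genes by a bare first start and a covered later one itself favours such shares. They therefore only describe these 60 genes. Celf2, which encodes an RNA-binding splicing regulator, was covered over 262.8, 265.3 and 266.3 kb of its 857 kb (30.9% ± 0.205), and 99.9% of that lay past a start 524 kb into the gene, where 38.8% of the gene length lies. In Cdyl, a gene of a chromodomain protein, 99.6% of 119.3 ± 0.342 covered kb lay past a start 81.6 kb into the gene, with 61.9% of the length. Rbms1, which encodes an RNA-binding protein, had 99.7% of 106.4 ± 1.23 covered kb past a start 82.4 kb in, with 61.4% of the length. In 4 of the 60 less than 50% of the covered bases lay past the inner start. These were Filip1l (15.4%), which overlaps another gene, Iqsec1 (41.3%), Tacc2 (43.6%) and Spata13 (47.0%). In Iqsec1, Tacc2 and Spata13 the first start in the promoter table lies inside the annotated gene. Sequence before that first start was still counted, so a bare first start need not mean a bare gene start.

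Covered genes had start sites rich in CG. In the 250 bases before the first start site, the median number of CG was 16 in 728 full genes (quartiles 9 and 23), 16 in 7418 partly covered genes, 11 in 1145 genes that changed class and 3 in 7983 never covered genes (quartiles 1 and 10), and over all 17274 promoters it was 10. Of promoters with 20 or more CG, 19.9% belonged to never covered genes, against 86.0% of promoters with 2 or fewer. The GC box GGGCGG, which itself holds a CG, was in 56.9% of full, 59.8% of partly covered and 25.6% of never covered promoters (43.2% of all). The ETS-type motif CCGGAAGT, which also holds a CG, was in 7.14%, 6.47% and 1.00% (3.87% of all). The TATA-type motif TATAAA was in 5.77%, 5.80% and 19.8% (12.5% of all), and CCAAT was in 35.3%, 37.4% and 36.5% (36.8% of all). Motifs were searched on both strands, and a match is a description of the sequence only. Some covered groups had few CG: the Gimap genes, all 8 full, had a median of 3 CG and T lineage markers 4, whereas cytosolic ribosomal protein genes had 16.

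In 295 genes the peaks covered 100 kb or more, and 100 genes held 11.1% of all covered bases of protein-coding genes. Inpp4b, which encodes a phosphoinositide phosphatase, led with 650.0, 661.7 and 668.8 kb (660.1 ± 9.51 kb, 83.3% of the gene), and it overlaps another gene. Foxp1, a forkhead factor that keeps naive T cells quiescent, followed with 507.6, 515.0 and 514.1 kb (512.2 ± 4.04 kb). Lpp, which encodes a LIM protein of cell adhesions, had 481.9, 488.4 and 541.9 kb (504.1 ± 32.9 kb), and here the third list stood above the others. Arhgap15, which encodes a GTPase-activating protein for Rac, had 478.4, 505.4 and 518.6 kb (500.8 ± 20.5 kb).

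Below these came Atxn1 with 393.1 ± 2.27 kb, Elmo1, part of a Rac exchange complex, with 381.4 ± 7.45 kb, and the forkhead gene Foxn3 with 362.1 ± 1.80 kb (SD, n = 3 each). Bach2, a repressor of effector programmes in T cells, was the most evenly filled of the 20, with 347.7, 347.0 and 347.7 kb, or 99.9% of the gene. Maml2, a coactivator of Notch, had 301.5 ± 0.700 kb, the protein kinase C gene Prkca 311.6 ± 4.75 kb, and Itpr1, which encodes the calcium channel of the endoplasmic reticulum, 265.2 ± 4.55 kb. The last of the 20 was set by a small margin, since Celf2 came next with 264.8 kb. The 20 genes had a median length of 414 kb and a median coverage of 80.5%, from 56.9% in Kcnq5 to 99.9% in Bach2.

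The same covered length could be made of strong or of weak peaks. When only peaks with a −log10 q of at least 5 were kept, Bach2 kept 99.9% of its covered length, Foxn3 99.1%, Maml2 98.0% and Atxn1 97.8%. Foxp1 kept 92.2% and Inpp4b 89.8%. Kcnq5, which encodes a potassium channel subunit, kept 25.6% (82.3 ± 6.05 kb), Rabgap1l 33.8% (117 ± 18.5 kb), Fars2 37.1% (119 ± 37.4 kb) and Arhgap15 38.1% (191 ± 19.2 kb). Snd1 kept 52.8%, Lpp 60.6%, Elmo1 61.5% and Babam2 65.8%. Of these, Inpp4b, Rabgap1l, Snd1 and Foxn3 overlap another gene.

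**Figure D4:**
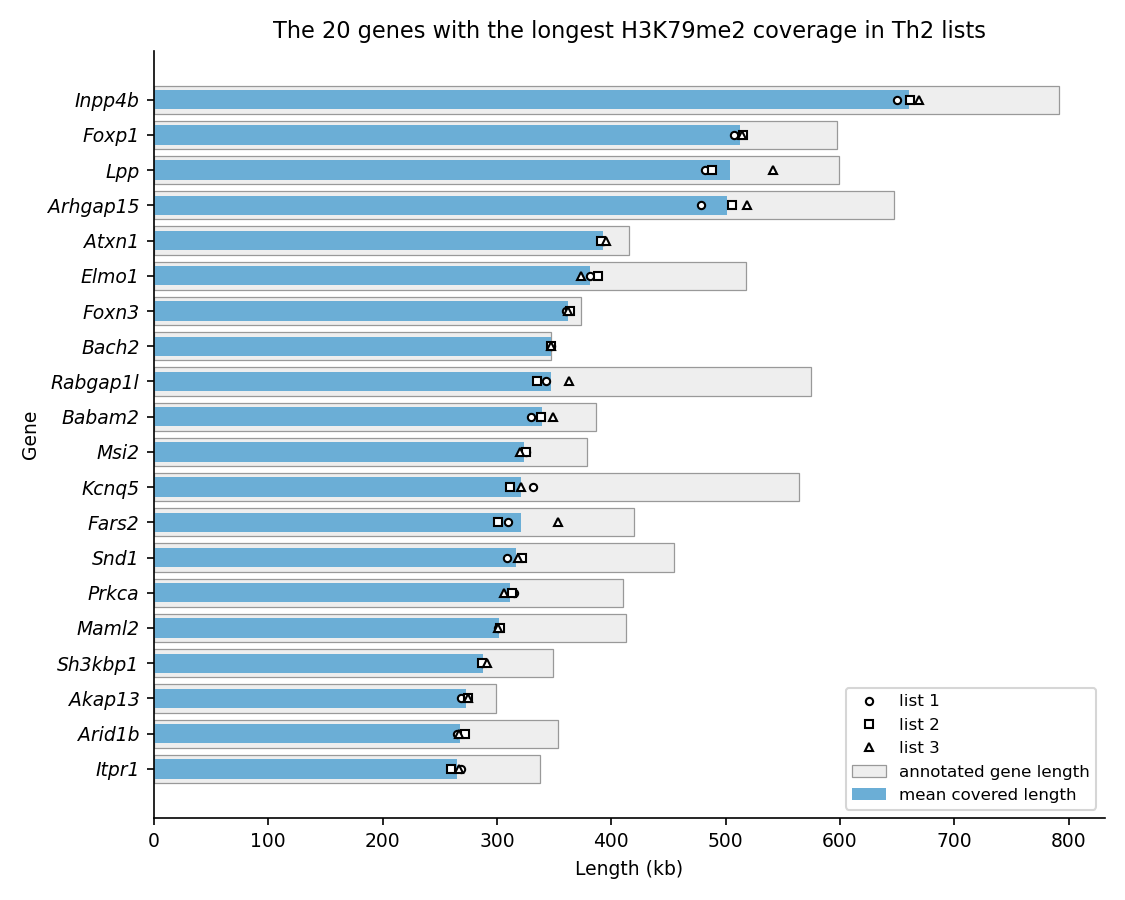
The 20 protein-coding genes with the longest H3K79me2 coverage (kb), longest at the top; open bars are the annotated gene length, filled bars the mean covered length and symbols the 3 lists. Inpp4b leads with 660.1 kb, Bach2 is filled over 99.9% of its length, and the lists differ most in Lpp and Fars2.

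Full coverage of a large gene was rare. Of 2427 genes of 100 kb or more, 7 were full in all 3 lists and 30 reached 95% in each. Etv6, which encodes an ETS-family repressor, was the longest with 234.5 kb. It was followed by Prkch (193.4 kb), a protein kinase C gene of T cells, Chd7 (178 kb), a chromatin remodeller, and Bcl2 (176.1 kb), which protects lymphocytes from apoptosis. Then came Ubac2 (142.5 kb), Tnfaip8 (113.8 kb) and Elf1 (101.3 kb), another ETS factor. Bcl11b (93.7 kb), needed for commitment to the T lineage, Ago2 (83.3 kb), the small-RNA effector, Foxo1 (81.8 kb), which controls homing and quiescence, Ikzf3 (81.4 kb), the lymphoid factor Aiolos, and Ski (68.5 kb), a brake on TGF-β signalling, were also full, as were Znrf1 (89.2 kb) and Ranbp9 (78.6 kb). Prkch, Ubac2, Elf1, Znrf1 and Ranbp9 overlap another protein-coding gene.

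Stretches covered in all 3 lists numbered 39277, with a median of 1234 bp. Of these, 575 reached 50 kb and 99 reached 100 kb. Of the 575, 490 touched exactly 1 protein-coding gene, 78 touched more than 1 and 7 touched none. A whole protein-coding gene was held by few: 505 held none and 50 held 1. The longest lay over Bach2 (chr4:32237673-32584244, 346.6 kb), and the next over Foxp1 (301.6 kb), Etv6 (251.6 kb), Foxn3 (243.1 kb), Msi2 (242.6 kb), Prkca (231.0 kb) and Tnik (230.5 kb). Coordinates are on mm10. The stretch of 190.4 kb at chr15:62036483-62226921 touched no protein-coding gene and lay over Pvt1, a long non-coding RNA gene next to Myc. Others of the 7 long stretches outside protein-coding genes lay over the non-coding genes Lncpint (157.9 kb) and Morrbid (70.8 kb), the second of which is known to regulate the lifespan of short-lived myeloid cells. These non-coding genes were named after their values were seen.

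Some long stretches ran through a whole gene cluster. All 7 of Gimap8, Gimap9, Gimap4, Gimap6, Gimap7, Gimap1 and Gimap5, which encode GTPases for lymphocyte survival, lay in 1 stretch of 110.6 kb (chr6:48643714-48754289). A stretch of 87.2 kb on chromosome 17 held 7 whole genes, among them the cytokine genes Tnf, Lta and Ltb together with Aif1, Lst1, Nfkbil1 and Atp6v1g2. A stretch of 50.7 kb on chromosome 16 held Socs1, an inhibitor of cytokine signalling, together with Tnp2, Prm3, Prm2 and Prm1, which package DNA in sperm. A stretch of 49.0 kb on chromosome 4 held B3galt6 and Sdf4 together with Tnfrsf4 and Tnfrsf18, which encode the costimulatory receptors OX40 and GITR. A stretch of 42.3 kb on chromosome 2 held Med22, Rpl7a, Surf1 and Surf2. Of the 906 full genes, 261 shared a stretch of 5 kb or more with another full gene.

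Of 25 Th2 genes, 9 were full (36.0%), 5 partly covered, 5 changed class and 6 were never covered (24.0%), against 4.19% full and 47.1% never covered among all protein-coding genes. The median coverage of the list was 92.8%, and over all protein-coding genes it was 1.37%; the median length was 9.15 kb in the list and 17.3 kb over all genes. Full genes were Il4, Il13, Il10, Il24, Maf, Gfi1, Ccr8, Nfil3 and Stat6, the last of which carries the IL-4 signal and overlaps another gene. Il5 was covered over 78.4%, 100% and 100% of its 4.31 kb, so that the first list stood below the others. Il4ra, the receptor chain for IL-4 and IL-13, was covered over 100%, 96.2% and 95.5%, and Rad50, whose body holds the locus control region of the Th2 cytokines, over 98.6%, 96.2% and 100%. Ccr4, a chemokine receptor of Th2 cells, had 58.0% ± 1.78, Igf1r 73.8% ± 2.40 and Epas1 60.1% ± 4.54 (SD, n = 3). The other partly covered members had less, Crlf2 28.5% ± 1.13 and Pparg 1.88% ± 2.52. In Igf1r, peaks with a −log10 q of at least 5 held 64.3% of the covered length. Bare in all 3 lists were Il9, Il31, Areg, Il17rb, Bhlhe41 and Ptgdr2, which encodes the prostaglandin receptor CRTH2.

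Genes of other T helper fates were covered unevenly. Of 20 Th1 genes, 1 was full, 10 were partly covered, 7 changed class and 2 (Ccl3 and Ccl5) were never covered. The share of full genes, 5%, was near the 4.19% of all protein-coding genes, and without the second list it was 10%, since Tbx21 was then full as well. Never covered were 10% of the list, against 47.1% of all protein-coding genes. Tbx21 stood near 100%, and Gzmb, which encodes granzyme B, had 95.1% ± 4.32, and both kept all of their covered length with peaks of a −log10 q of at least 5. Runx3 had 88.9% ± 8.33, Il12rb1 88.3% ± 4.64 and Havcr2, which encodes TIM-3, 84.3% ± 10.1. Eomes had 5.84% ± 7.66 and Il18rap 6.58% ± 5.46. Of 15 genes of the remaining fates, Il21 was full (2 of 15 were full without the first list) and Il17a, Il17f and Ccr6 were bare. Foxp3, the regulator of regulatory T cells, was covered over 29.2%, 39.7% and 28.3% and overlaps another gene. Peaks with a −log10 q of at least 5 held 0% of its covered length. Bcl6 had 40.4% ± 2.13 and Rora, whose gene spans 735 kb, had 9.10% ± 0.201. Ikzf2 and Nrp1 had 16.2% ± 4.91 and 35.2% ± 5.26, of which peaks with a −log10 q of at least 5 held 1.30% and 6.20%.

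Every gene on the lists of T lineage markers, T cell receptor signalling, activation and cytokine receptors had a peak in all 3 lists. The median coverage of these gene lists was 100%, 87.5%, 96.8% and 91.8%. Among all protein-coding genes the median coverage was 1.37%, with 4.19% full and 42.2% partly covered. Of 12 T lineage markers, 7 were full, among them Cd28, Cd5, Thy1 and Lat, and the other 5 were partly covered, with the lowest value in Cd4 (81.9%, 83.8% and 80.0%). Of 36 genes of T cell receptor signalling, 4 were full, among them Lat, Ptpn6 and Orai1, 30 partly covered and 2 changed class. In this list Prkcq, the kinase of the immunological synapse, had 99.9% ± 0.240, Cblb, a ubiquitin ligase that dampens activation, 97.5% ± 0.601 and Fyn 85.1% ± 3.64, whereas Vav3 had 37.2% ± 1.23 and Was 40.3% ± 3.48. Of 23 activation and costimulation genes, 11 were full and 12 partly covered. Of 32 genes of cytokine receptors, JAK kinases and STAT factors, 11 were full and 19 partly covered. The full ones included Stat3, Il7r, Il2rb, Il2rg, Il6ra, Socs1, Socs3 and Cish. Tyk2 had the least, 13.6% ± 0.874, while Jak1 and Jak2 had 91.3% ± 0.169 and 92.3% ± 0.913. Jak1 overlaps another gene.

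Transcription factors of T cells had a median coverage of 96.3%, and 35 of 36 were covered over 50% or more. Of these 36, 8 (22.2%) were full, namely Foxo1, Ikzf3, Bcl11b, Elf1, Batf, Myc, Junb and Id2, and 24 (66.7%) were partly covered. Among all protein-coding genes 4.19% were full and 42.2% partly covered. Ikzf1 had 99.7% ± 0.241, Ets1 97.9% ± 0.809, Lef1 97.4% ± 0.582, Irf4, which cooperates with BATF in effector cells, 97.0% ± 0.834 and Runx1 96.1% ± 1.10. Tcf7, which encodes TCF-1, had 88.9% ± 3.26 and overlaps another gene. Tox had 73.6% ± 1.45, and peaks with a −log10 q of at least 5 held 38.7% of that. Prdm1, which encodes Blimp-1, had the least of the list, 23.3%, 23.3% and 25.3%.

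All 18 genes of DOT1L and its partners had a peak in each list. Of these, 2 were full (Ccnt2, a cyclin of the elongation kinase P-TEFb, and Men1), 13 were partly covered and 3 changed class, against 4.19% full and 42.2% partly covered among all protein-coding genes. Without the second list 4 were full, Ccnt1 and Cdk9 being the ones added. Dot1l itself, a gene of 40.4 kb, was covered over 97.9%, 91.6% and 94.7%. Of its AF9-type partners, Mllt3 had 93.5% ± 0.595 of 263 kb and Mllt1 78.6% ± 0.797. Mllt10 had 91.1% ± 0.411 and overlaps another gene. Kmt2a, the MLL methyltransferase gene that is fused to several of these partners in leukaemia, had 50.9% ± 1.93. Eaf2 had the least, 10.7% ± 0.634, and overlaps another gene.

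Genes of basic metabolism and of protein synthesis differed in how full they were. Their counts are read against 4.19% full and 42.2% partly covered among all protein-coding genes. Of 80 cytosolic ribosomal protein genes, which are short, 50 were full and 2 never covered. Of 78 mitochondrial ribosomal protein genes, 15 were full and 59 partly covered, and of 87 respiratory chain and ATP synthase genes 14 and 53. None of 20 cytosolic aminoacyl-tRNA synthetase genes was full and 19 were partly covered, with a median coverage of 45.1% over the list. Of 57 splicing factor genes, 14 were full and 37 partly covered. Of 20 glycolysis genes, 5 were full, among them Gapdh, Aldoa and Hif1a, the last encoding a factor that drives the pathway, and Hk2, Ldha and Slc2a1 had 86.2% ± 0.426, 84.3% ± 3.21 and 97.7% ± 1.77. Of 50 chromatin regulators, 3 were full and 45 (90%) partly covered, with a median of 72.8%. Their 6% of full genes is near the share among all protein-coding genes. These lists were chosen to stand for genes that most cells transcribe, but not every member need be such a gene. The longest never covered members were Rpl39l among cytosolic and Mrpl43 among mitochondrial ribosomal protein genes. They were Cox7b2 among respiratory chain genes and Hnrnpa1l2-ps2, by its name a pseudogene, among splicing factor genes.

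Replication-dependent histone genes were mostly bare. Of 63, none was full, 4 were partly covered and 51 never covered. These genes are very short, with a median of 0.492 kb. Among all protein-coding genes 4.19% were full, 42.2% partly covered and 47.1% never covered. Of 30 genes of DNA replication and mitosis, 3 were full, 23 partly covered and 1, Rrm2, which encodes a subunit of ribonucleotide reductase, was never covered. Of 397 genes named Zfp, a family of zinc finger genes, 19 were full, 258 partly covered and 86 never covered. Their 4.79% of full genes is near the 4.19% of all protein-coding genes, and 21.7% were never covered, against 47.1%.

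**Figure D5:**
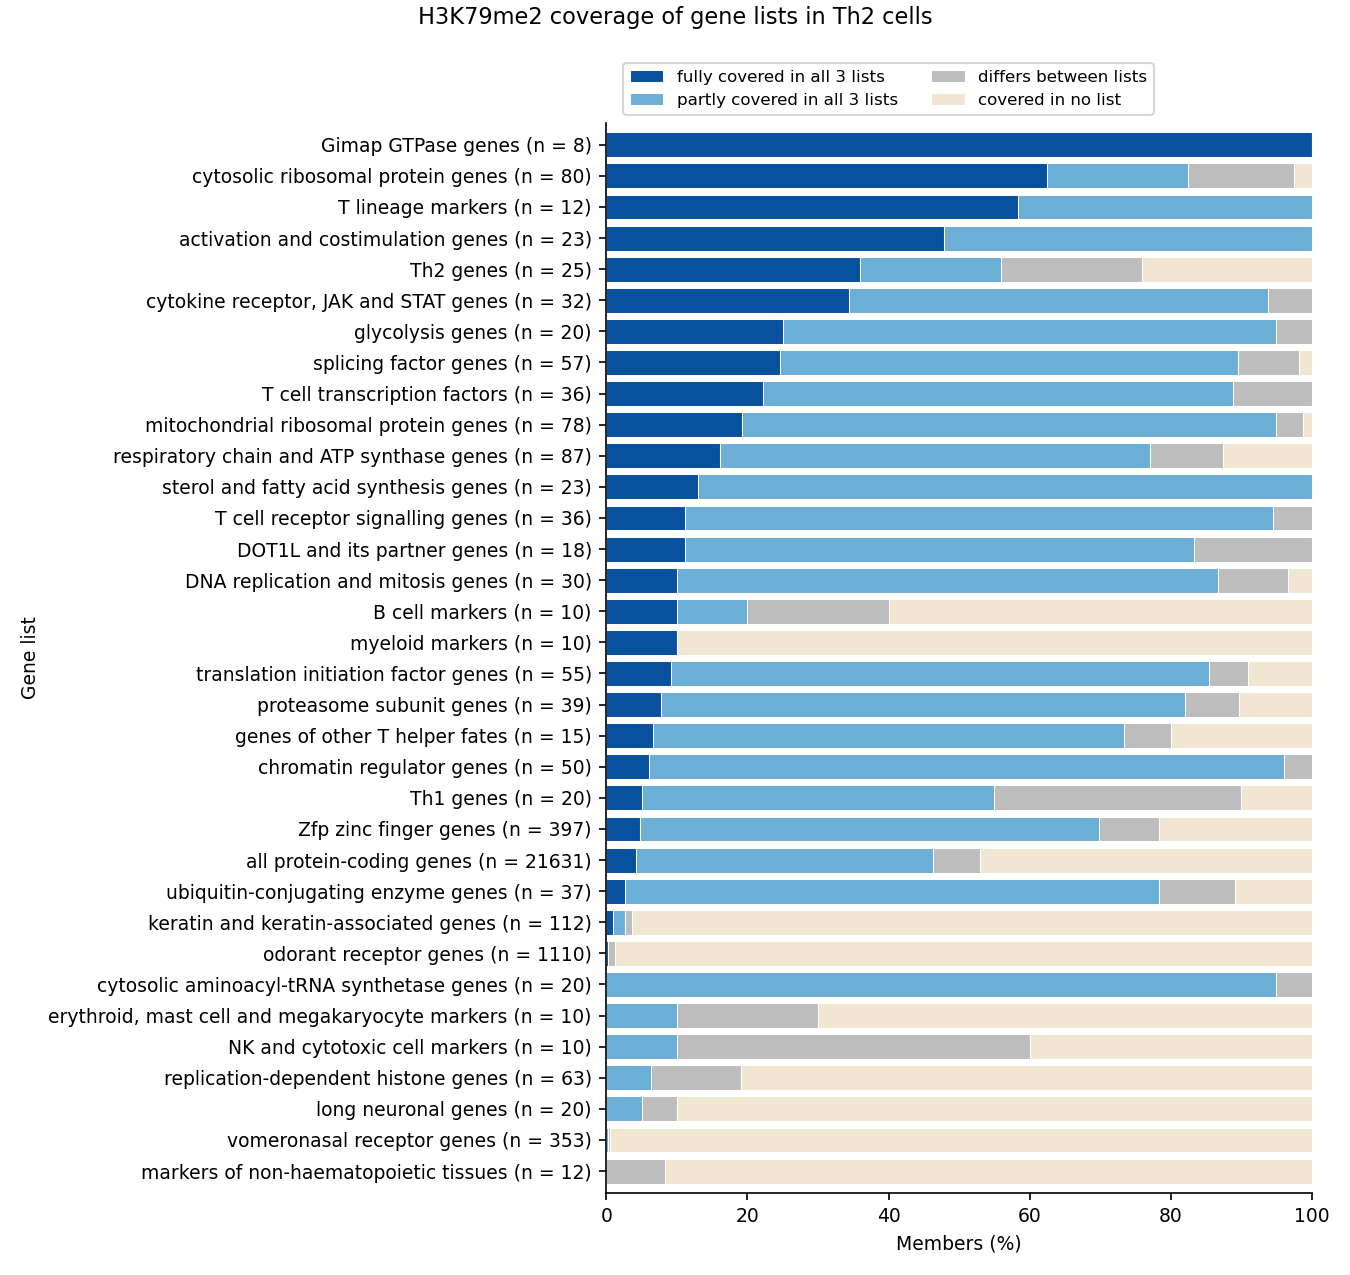
Share of members (%) in each coverage class for each gene list with 8 or more members, ordered by the share fully covered; the number of members stands beside each name. Gimap genes are all full, 62.5% of cytosolic ribosomal protein genes are full, and sensory receptor, neuronal and tissue marker genes are almost all never covered.

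The longest never covered genes were Dmd, the dystrophin gene, with 2390 kb, Ptprd, Cntnap2, Lsamp, Lrp1b, Macrod2, Csmd1, Nrxn3, Robo2 and Pcdh15, with no peak over 1554 kb even in the last of them. Of 20 long neuronal genes, 18 were never covered. Markers of other blood cells differed in how many were bare, read against 47.1% never covered among all protein-coding genes. Never covered were 90% of the 10 myeloid markers and 60% of the 10 B cell markers. Among the latter Fcer2a had 19.1% ± 1.23 and overlaps another gene. Of the 10 erythroid, mast cell and megakaryocyte markers 70% were never covered, while Klf1 had 31.5% ± 12.4. The share was 40% in the 10 NK and cytotoxic markers and 20% in the 5 CD8 T cell markers. Coverage of the NK and CD8 lists was nevertheless small, with a median of 2.20% over the NK and cytotoxic markers and 7.28% over the CD8 markers. Among the NK and cytotoxic markers, the signalling adaptor gene Tyrobp was covered over 100%, 100% and 78.95%, and Fcer1g, which encodes another adaptor, was bare. Cd8a had 7.0%, 14.8% and 0%, and Cd8b1 had 23.3% ± 5.10. Neither kept any covered length when only peaks with a −log10 q of at least 5 were kept. Of 12 markers of non-haematopoietic tissues 11 were never covered. The part of other cells in these values was not tested.

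Some genes differed widely between the lists. Among genes of 10 kb or more, Zfp882 had the largest range, with 78.5%, 100% and 45.2%. Zbtb16, which encodes the factor PLZF of innate-like T cells, had 54.9%, 38.1% and 82.5%, and peaks with a −log10 q of at least 5 held 11.7% of its covered length; it overlaps another gene. Plac8 had 3.1%, 0.9% and 37.6%, so that the third list alone covered a sizeable part. Prxl2a had 65.9%, 37.8% and 88.7%, and Bad, a pro-apoptotic BCL-2 family gene that overlaps another gene, had 36.7%, 40.3% and 76.1%. Of the 10 genes with the largest range, the third list, which covered the most sequence, was the highest in 6, the second in 3 and the first in 1.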

How the data were processed

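H3K79me2 in Th2 cells was measured by ChIP-seq, and the authors deposited 1 broad peak list per library, so that peaks had been called in each library separately. Per the submitters' processing notes, reads went through MACS2, SAMtools, Picard and Bowtie2, named there in no stated order, and mm10 was the genome; tool versions and settings, and whether inputs entered the calling, are not given in the sources used here. The deposited columns used were the peak positions, the fold enrichment (a ratio) and the −log10 q value; the deposited −log10 p value and the deposited score were not used. Read counts and depths were not used here, so no counting interval was set.

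Peaks on chromosomes 1 to 19 and X were intersected with the span of 21631 RefSeq protein-coding genes (GRCm38.p6), of which 3841 (17.8%) overlap another. Strand and promoters came from the RefSeq promoter table and were had for 17274 genes (79.9%). The first start site of a gene is the most upstream one in that table, and in some genes it lies inside the annotated span. A gene was full at 100%, never covered at 0% and partly covered in between, in each of the 3 lists. Values are means ± SD over the lists, and no test was run, since the lists were compared with no other group. Interval code (Python 3.11.15, numpy 2.4.6, pandas 2.3.3) was checked on simulated intervals against counting base by base.

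Named genes were the 20 longest covered, the 15 longest full, the 10 longest never covered, the 10 of at least 10 kb with the largest range, the 10 longest stretches, the 5 stretches with the most whole genes, members of the T cell, glycolysis, DOT1L and marker lists, and the longest full and never covered member of each other list. Some genes that this rule names are not reported here. Members and lists were chosen with earlier results of these data known.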

Additional observations from a re-analysis of the deposited data

How the results depend on the processing

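With only peaks of a −log10 q of at least 5, 9358 peaks per list were left, with a median width of 11186 bp, 174.6 Mb covered, 157.3 Mb covered in all 3 lists and 88.8% of covered bases in protein-coding genes, and the first 2 kb and the last 2 kb were covered in 81.8% and 5.64% of long partly covered genes. With only peaks of a fold enrichment of at least 2, the median width was 2080 bp, the covered length 230.9 Mb and the share with a covered first 2 kb 75.6%. Joining peaks less than 1 kb apart gave a median width of 1354 bp. Joining peaks less than 3 kb apart gave 21813 peaks of a median 3831 bp, 279.1 Mb covered, 244.8 Mb in all 3 lists, 84.0% in genes, 1286 domains of 50 kb or more, 76.6% with a covered first 2 kb and 1685 full genes. Dropping the weakest peaks until the lists covered the same length gave 75.6% with a covered first 2 kb. The median width was then 1993 ± 1056 bp (SD over the 3 lists), so it differed widely between the lists. Counting genes as full from 90% gave 1794. Leaving out each list in turn gave 212.1 to 219.4 Mb covered in all lists left and 7.99% to 8.44% of genes with a covered last 2 kb. The share of full genes moved by more than 1.5 times in 6 of 34 gene lists when 1 list was left out. Beside the Th1, other T helper and DOT1L lists these were NK and cytotoxic markers (0 full, 1 without the third list), odorant receptor genes (2 full, 3 without the second) and ubiquitin-conjugating enzyme genes (1 full, 3 without the first and 2 without the third). Numbers of partly and never covered genes stayed within 1.5 times under every alternative run, and the median CG of full promoters was 16 under each. Of 370 named genes, 125 had a covered length lower by more than the SD between lists with a −log10 q of at least 5, and 132 had one higher by more than that with peaks joined over 3 kb.

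No paired analysis was possible because the Th2 lists were compared with no other group. The depth of the libraries is unknown, so no detection limit was set for a bare gene, and depth and covered length cannot be told apart. Full coverage depends on annotated gene ends and favours short genes. Reads of overlapping genes cannot be told apart.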

Other observations

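Chromosomes differed in how much of them lay under H3K79me2. Chromosome 11 had 13.8% of its length covered in all 3 lists, the largest share, and chromosome 19 had 11.1%. Chromosome X had 2.42%, the smallest share, with 66.8% of its 966 protein-coding genes never covered and 1.04% full. Even so, the X-linked Il2rg, the common cytokine receptor chain, was full, and Sh3kbp1, an adaptor of receptor uptake, had 288 ± 2.61 kb covered (SD, n = 3). Chromosomes 19 and 17 had the largest shares of full genes, 7.94% and 7.18%.

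Long stretches without an annotated protein-coding gene were few. Of the stretches of 5 kb or more covered in all 3 lists, 514 touched no protein-coding gene, and 7 of the 575 stretches of 50 kb or more did. A pair of these, of 63.3 kb on chromosome 5 and of 56.6 kb on chromosome 2, touched no annotated gene of any kind.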
